A study of Mus musculus with 9 samples.

Results

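The sodium-potassium pump genes described here were 7 of the 24170 mouse genes measured: Atp1b1, Atp1b2 and Atp1b3, which encode beta subunits, and Fxyd1, Fxyd2, Fxyd6 and Fxyd7, which encode FXYD regulators. They were chosen by name, and their levels are sums of the deposited read counts over the RefSeq transcripts of each gene. The libraries were made from mRNA of 3 purified kinds of primary mouse cell, each cultured in 3 biological replicates. DRG neurons are sensory neurons whose ganglia lie along the spinal cord, and these were taken from the dorsal root ganglia of E13.5 embryos and kept in culture for about 2 weeks. Oligodendrocyte progenitor cells (OPC), which divide and give rise to myelinating cells, came from the cortex of pups of either sex at postnatal day 6 to 9, and their culture lasted 6 to 7 days. Astrocytes came from the cortex of pups of either sex at postnatal day 1 to 3, with about 21 days of culture to confluence. Cell type, donor age and culture time changed together in every comparison, and tissue of origin changed in those with DRG neurons, so these cannot be told apart. In such bulk cultures fewer cells of a type and less RNA per cell cannot be told apart either.

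The sodium-potassium pump (Na,K-ATPase) uses ATP to carry sodium out of the cell and potassium into it, which sets the ion gradients that neurons spend on firing and that astrocytes use to clear potassium and glutamate. Its alpha subunit is the catalytic part. The beta subunit is a glycoprotein that the alpha subunit needs in order to fold, to leave the endoplasmic reticulum and to reach the cell surface, and FXYD proteins are small single-span membrane proteins that bind the pump and tune its affinity for ions.

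The pump genes differed sharply in which cell type carried them. Atp1b1 and Fxyd7 were the beta and FXYD genes with the highest levels in the DRG cultures, at 2947 ± 355 and 485 ± 49.8 CPM (read counts over TMM-scaled library size; mean ± SD, n = 3). Atp1b2 and Fxyd6 were much lower there, at 7.29 ± 3.99 and 1.08 ± 1.32 CPM, and averaged 268 CPM or more in both glial cultures. Atp1b3 was the most even of the 7, with DRG neurons at 321 ± 29.7 CPM, OPC at 156 ± 3.38 CPM and astrocytes at 264 ± 20.5 CPM. Fxyd1 and Fxyd2 never exceeded 1.81 CPM in any library, and only part of their mRNA could be counted.

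FXYD proteins are named after a signature of phenylalanine, a variable residue, tyrosine and aspartate next to the membrane. The coding bases around it are shown for the 4 FXYD genes because this stretch defines the family and shows how far its members differ. Each run is 48 bases of coding sequence, 5′ to 3′, from GENCODE vM21 (GRCm38), and the capitals mark the 12 bases of the signature.
Fxyd1 (chromosome 7, coding bases 67 to 114): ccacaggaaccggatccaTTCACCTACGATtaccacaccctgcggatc
Fxyd2 (chromosome 9, coding bases 31 to 78): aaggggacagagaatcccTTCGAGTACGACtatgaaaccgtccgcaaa
Fxyd6 (chromosome 9, coding bases 67 to 114): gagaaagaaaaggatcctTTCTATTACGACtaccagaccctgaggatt
Fxyd7 (chromosome 7, coding bases 34 to 81): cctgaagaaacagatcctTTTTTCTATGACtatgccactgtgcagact
Of the 12 signature bases, between 7 and 10 were identical in any pair, with 10 in Fxyd2 and Fxyd6. Over whole transcripts, the longest run of identical bases between any pair of these FXYD genes was 9 to 11, and between any pair of the 3 beta genes 12 to 19.

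The genes lie in protein-coding loci on 4 chromosomes of GRCm38.p6. Atp1b1 spans chr1:164437099-164458355, Atp1b2 chr11:69599728-69605978 and Atp1b3 chr9:96332655-96364431, all on the minus strand. Fxyd6 at chr9:45369470-45396159 and Fxyd2 at chr9:45399709-45410278 are plus-strand neighbours with 3549 bases between them, and Fxyd7 at chr7:31042515-31051454 and Fxyd1 at chr7:31051678-31055873 are minus-strand neighbours 223 bases apart. The glial Fxyd6 therefore sat beside Fxyd2, whose few counts were mostly from DRG neurons, and the neuronal Fxyd7 sat beside Fxyd1, whose few counts were mostly from astrocytes. Atp1b1 overlaps the neighbouring gene Nme7 by 202 bases, and because the strand setting of the counting was not given, reads in that overlap are uncertain.

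Promoter sequence is shown for 2 genes with different patterns: Atp1b1, highest in DRG neurons and also present in astrocytes, and Fxyd6, high in both glial types. Each run is the 250 bases before a transcript start, on the strand of the gene, from RefSeq (GRCm38.p6), and capitals mark GC boxes (GGGCGG or CCGCCC) and CCAAT boxes (CCAAT or ATTGG).
Atp1b1 (chr1:164458356-164458605, minus strand): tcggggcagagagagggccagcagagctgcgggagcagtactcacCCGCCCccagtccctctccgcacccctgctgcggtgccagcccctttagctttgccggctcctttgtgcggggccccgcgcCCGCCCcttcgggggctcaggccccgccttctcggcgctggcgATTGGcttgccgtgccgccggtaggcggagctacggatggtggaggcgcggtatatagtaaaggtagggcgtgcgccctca
Fxyd6 (chr9:45369935-45370184, plus strand, inside the annotated gene span): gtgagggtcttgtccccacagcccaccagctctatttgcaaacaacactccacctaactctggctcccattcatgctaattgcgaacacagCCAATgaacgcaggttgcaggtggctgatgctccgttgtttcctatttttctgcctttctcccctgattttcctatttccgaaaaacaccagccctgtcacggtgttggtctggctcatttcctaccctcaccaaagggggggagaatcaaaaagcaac
The Atp1b1 window held 2 GC boxes and 1 CCAAT box, with a GC content of 70.4% and 24 CpG. The Fxyd6 window held 1 CCAAT box and no GC box, with a GC content of 50.4% and 5 CpG. GC boxes were found in 32.7% and CCAAT boxes in 33.8% of 32851 RefSeq promoter windows of this length, whose medians were a GC content of 52.4% and 6 CpG. On either strand, neither window held TATAAA (found in 12.4% of all windows), the E-box letters CACGTG (6.02%) and CAGCTG (13.0%), or the CRE letters TGACGTCA (1.55%). A match of letters is a description of the window and does not show that a factor binds there. Among windows not printed, those of the more even Atp1b3 had a GC content of 73.6% and 76.8%, with 24 and 35 CpG. That of Fxyd1 had a GC content of 57.2% and 3 CpG. The Atp1b3 window with 76.8% and the Fxyd1 window lie inside their annotated gene spans. The bases after these windows were not found in the matching GENCODE transcripts of the gene. Promoter entries for Atp1b2, Fxyd2 and Fxyd7 were not at hand.

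Assigned counts per library ran from 30710093 to 53594210, and 15889 to 17061 genes were detected. Correlations of log2 CPM between replicates, across genes, were 0.932 to 0.987. Each set of marker genes was highest in the cell type of its label: 12 sensory neuron genes summed to 6461 to 6609 CPM in DRG libraries and to at most 18.2 CPM elsewhere, 8 OPC genes to 5101 to 6860 CPM in OPC libraries, and 9 astrocyte genes to 6458 to 8272 CPM in astrocyte libraries. The OPC genes also summed to 13.2 to 29.1 CPM in DRG libraries and 341 to 1311 CPM in astrocyte libraries, and the astrocyte genes to 593 to 943 CPM in DRG libraries and 859 to 1153 CPM in OPC libraries. Markers of other cells differed between astrocyte replicates 1, 2 and 3. Their 9 microglia genes summed to 2803, 490 and 456 CPM, their 9 fibroblast and mural genes to 1154, 8257 and 9747 CPM, and their 7 ependymal and choroid plexus genes to 1191, 175 and 484 CPM. DRG replicate 1 stood apart from the other DRG libraries for Fxyd2, Fxyd6 and Atp1b2, so these values are also given without it where the fit allowed.

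**Figure D1:**
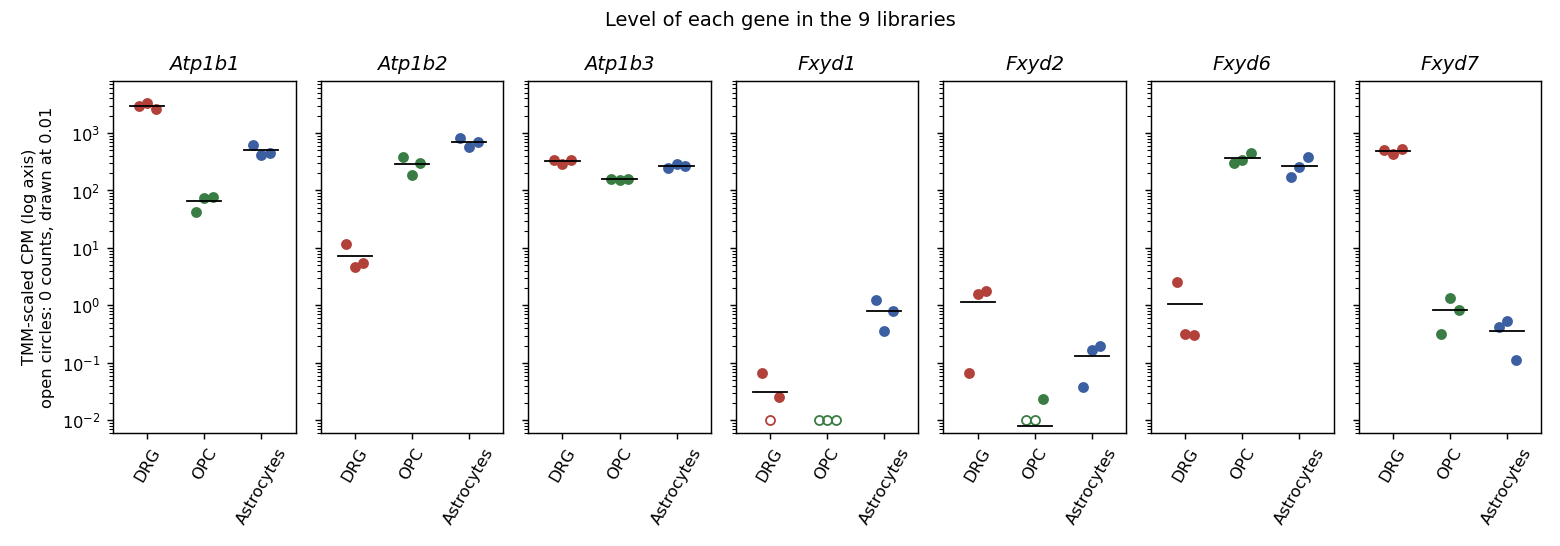
TMM-scaled CPM (log axis) of the 7 genes in the 9 libraries, grouped as DRG, OPC and Astrocytes, with a line at each mean and open circles at the bottom for libraries with 0 counts. Fxyd7 stood at 430.0 CPM or more in every DRG library and at 1.34 CPM or less elsewhere, while Fxyd6 stood at 173 CPM or more in every glial library and at 2.61 CPM or less in DRG neurons.

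Among the 6 genes that passed the low-count filter, 2 were higher and 3 lower in DRG neurons than in astrocytes, against 27.4% higher and 32.8% lower of all 14848 genes tested (60.2% called in either direction; edgeR quasi-likelihood test, Benjamini-Hochberg adjusted p under 0.05). Between DRG neurons and OPC, 3 were higher and 2 lower, against 28.4% and 31.1% of all genes (59.5% in either direction). Between OPC and astrocytes, 0 were higher and 4 lower, against 26.3% and 25.5% of all genes (51.8% in either direction). Those 0 higher calls were also 0 at an unadjusted p under 0.05 and 0 with DESeq2. The lower calls against astrocytes include Fxyd1 in both comparisons, and it passed the filter only through its astrocyte counts. Most genes were called in each comparison, so the counts alone set these genes little apart, and the sizes below carry the description. The median log2 fold change of the 6 genes was -2.23 for DRG neurons over astrocytes and -1.02 for OPC over astrocytes, beside -0.13 and 0.09 over all genes. For DRG neurons over OPC it was 1.04 over the 5 genes with a fold, or 2.20 with the fitted value of Fxyd1 included, beside -0.08 over all genes. These medians do not stand for a shared shift: for DRG neurons over astrocytes the 6 values ran from -8.02 to 10.37. Sign aside, the median log2 fold change over all genes was 1.18 for DRG neurons over astrocytes. It was 1.22 for DRG neurons over OPC and 0.95 for OPC over astrocytes. The DRG neuron comparisons share their 3 DRG libraries, and each glial group also enters a pair of comparisons.

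**Figure D2:**
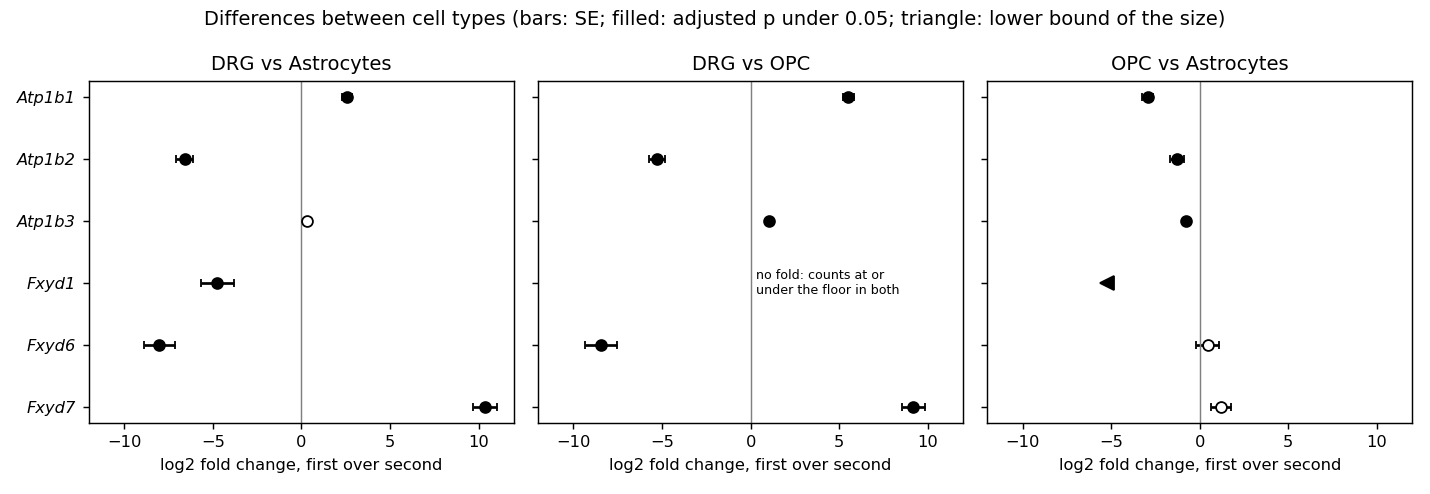
Log2 fold change, first group over second, of the 6 tested genes in the 3 comparisons, with bars of 1 SE, filled symbols for an adjusted p under 0.05 and a triangle for a lower bound of the size. Fxyd7 lies farthest to the right in both comparisons with DRG neurons, at 10.37 and 9.17, and Fxyd6 farthest to the left, at -8.02 and -8.46.

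Atp1b1 encodes the beta1 subunit, found in most tissues. It had 2971, 3289 and 2580.4 CPM in the DRG libraries, 42.7, 73.7 and 77.3 CPM in the OPC libraries, and 629.8, 413 and 449.8 CPM in the astrocyte libraries. The groups did not overlap: every DRG library was above every astrocyte library, and every astrocyte library was above every OPC library. DRG neurons exceeded astrocytes 5.92-fold (log2 fold change 2.57, SE 0.28, adjusted p = 7.25e-05) and OPC 45.6-fold (log2 5.51, SE 0.33, adjusted p = 3.63e-06). OPC were 7.70-fold lower than astrocytes (log2 -2.95, SE 0.29, adjusted p = 7.35e-05). By mean CPM it ranked 27th of the 14848 genes in DRG neurons, 3650th in OPC and 225th in astrocytes.

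Atp1b2 encodes the beta2 subunit, also known as the adhesion molecule on glia (AMOG), a pump subunit and adhesion protein described on mouse astrocytes. It had 11.9, 4.63 and 5.37 CPM in the DRG libraries, 375, 189 and 297 CPM in the OPC libraries, and 834, 572 and 689 CPM in the astrocyte libraries. Here astrocytes were highest, OPC between and DRG neurons lowest, without overlap, and astrocytes stood above OPC as they did for Atp1b1. DRG neurons were 96.1-fold lower than astrocytes (log2 -6.59, SE 0.48, adjusted p = 7.09e-06) and 39.5-fold lower than OPC (log2 -5.30, SE 0.45, adjusted p = 1.89e-05). OPC were 2.43-fold lower than astrocytes (log2 -1.28, SE 0.38, adjusted p = 0.0195). That last call was lost without OPC replicate 2, the lowest OPC library, where the log2 fold change was -1.04 (adjusted p = 0.0725), and without astrocyte replicate 1 and OPC replicate 3 together, where it was -1.32 (adjusted p = 0.0608). In the DRG libraries the 11 Schwann and satellite glia markers summed to 217, 335 and 262 CPM in replicates 1, 2 and 3, lowest in the replicate with the most Atp1b2, against 1927 to 3374 CPM in OPC and 693 to 1152 CPM in astrocytes. Sox10 of that list also stands among the OPC markers. Other marker sums went either way in DRG replicate 1. Fibroblast and mural markers were highest there, at 539, 247 and 496 CPM in replicates 1, 2 and 3, as were microglia and endothelial markers. Astrocyte markers were lowest there, at 593, 649 and 943 CPM, as were ependymal and choroid plexus markers. The part of any of these cells in the low DRG level of Atp1b2 was not tested. Without DRG replicate 1 the log2 fold changes were -7.12 over astrocytes and -5.84 over OPC (adjusted p = 1.62e-05 and 2.99e-05). That fit dropped the DRG library with the most Atp1b2, so its larger folds and its p-values are not separate evidence.

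Atp1b3 encodes the beta3 subunit, found in many tissues. It had 337, 287 and 339 CPM in the DRG libraries, 159, 152 and 157 CPM in the OPC libraries, and 243, 283 and 265 CPM in the astrocyte libraries. DRG neurons were highest, OPC lowest, and the closest libraries of DRG neurons and astrocytes stood at 287 and 283 CPM. The excess of DRG neurons over astrocytes did not pass the test (log2 0.28, SE 0.15, adjusted p = 0.118). It did pass without OPC replicate 3, at 0.38 (adjusted p = 0.0405), and with DESeq2, at 0.36 (adjusted p = 0.0170). With scaling to library size alone it was 0.03 (adjusted p = 0.885). DRG neurons exceeded OPC 2.06-fold (log2 1.04, SE 0.15, adjusted p = 0.000296), and OPC were 1.69-fold below astrocytes (log2 -0.76, SE 0.15, adjusted p = 0.00244).

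The mixture of beta subunits was compared per kilobase of transcript, since the 3 mRNAs have 2580, 2842 and 1994 bases. Together they came to 1306 ± 125 CPM per kb in DRG neurons, as against 204 ± 29.3 in OPC and 571 ± 79.9 in astrocytes (SD, n = 3 each). Atp1b1 made up 87.3 ± 2.24% of this sum in DRG neurons, as against 12.7 ± 4.85% in OPC and 33.5 ± 3.05% in astrocytes. Atp1b2 made up 0.197 ± 0.105% in DRG neurons, as against 48.6 ± 9.52% in OPC and 42.9 ± 2.50% in astrocytes. Thus one beta gene dominated the DRG sum, whereas the astrocyte sum was spread over all 3. Atp1b3, with the smallest differences in its own level, took 12.5 ± 2.21% in DRG neurons, as against 38.8 ± 5.06% in OPC and 23.6 ± 4.92% in astrocytes. Within single libraries the Atp1b1 to Atp1b2 ratio, per kb, was 276 to 782 in DRG neurons, 0.125 to 0.429 in OPC and 0.719 to 0.832 in astrocytes.

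**Figure D3:**
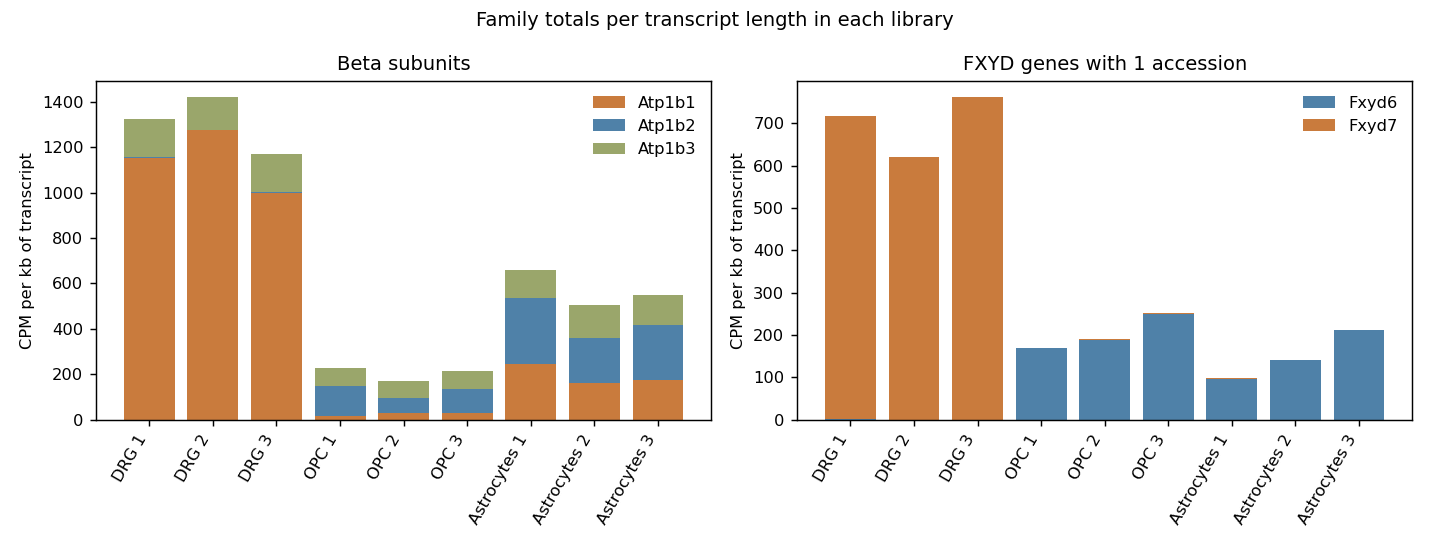
CPM per kb of transcript in each of the 9 libraries, stacked over the 3 beta subunit genes (left) and over the FXYD genes with a single accession, Fxyd6 and Fxyd7 (right). Atp1b1 fills 87.3% of the beta bars of DRG neurons on average and Atp1b2 only 0.197%, and the FXYD bars are Fxyd7 in DRG neurons and Fxyd6 in OPC and astrocytes.

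Fxyd7 encodes an FXYD protein known from the brain, where it was described in neurons. It had 497, 430.0 and 528 CPM in the DRG libraries, 0.313, 1.34 and 0.842 CPM in the OPC libraries, and 0.414, 0.546 and 0.111 CPM in the astrocyte libraries. DRG neurons were far above both glial types, whose ranges overlapped. DRG neurons exceeded astrocytes 1319-fold (log2 10.37, SE 0.68, adjusted p = 4.18e-06) and OPC 577-fold (log2 9.17, SE 0.65, adjusted p = 7.98e-06). Counted from the highest log2 fold change, these were places 60 and 136 of 14848 genes. The glial counts behind these folds were 14, 66 and 35 in OPC and 22, 23 and 4 in astrocytes. OPC and astrocytes did not differ past the threshold (log2 1.19, SE 0.56, adjusted p = 0.101), although they did without OPC replicate 1, at 1.59 (adjusted p = 0.0237).

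Fxyd6 encodes phosphohippolin, a brain FXYD protein. It had 2.61, 0.316 and 0.310 CPM in the DRG libraries, 302, 337 and 448 CPM in the OPC libraries, and 173, 252 and 378 CPM in the astrocyte libraries. Both glial types were far above DRG neurons and overlapped each other. DRG neurons were 259-fold lower than astrocytes (log2 -8.02, SE 0.89, adjusted p = 7.45e-05) and 351-fold lower than OPC (log2 -8.46, SE 0.91, adjusted p = 6.33e-05). Counted from the lowest log2 fold change, these were places 168 and 70 of 14848. DRG replicate 1 held 77 of the 104 DRG counts, and without it the log2 fold changes were -9.72 against astrocytes and -10.16 against OPC (adjusted p = 1.15e-05 and 1.44e-05). Dropping the DRG library with the most Fxyd6 enlarges these folds, so they and their p-values are not separate evidence. OPC and astrocytes did not differ past the threshold (log2 0.44, SE 0.65, adjusted p = 0.597), and the sign turned to -0.13 without astrocyte replicate 1 and OPC replicate 3. Astrocyte replicate 1, with the lowest Fxyd6 of its group, had the most microglia and ependymal marker RNA and the least fibroblast marker RNA. The 8 OPC markers summed to 341, 1203 and 1311 CPM in astrocyte replicates 1, 2 and 3, the same order as Fxyd6. The fibroblast and mural, pan-neuronal and muscle marker sums had that order too. The part of any of these cells in the spread of Fxyd6 was not tested.

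Per kilobase, Fxyd7 had 699 ± 71.9 CPM per kb in DRG neurons, and Fxyd6 had 203 ± 42.7 in OPC and 149.6 ± 57.7 in astrocytes (SD, n = 3 each). Fxyd7 took 99.7% of the summed CPM per kb of the 4 FXYD genes in DRG neurons. Fxyd6 took 99.4% in OPC and 98.5% in astrocytes. These shares leave out the reads of Fxyd1 and Fxyd2 that several of their transcripts share, so the true shares of those genes may be larger. The Fxyd7 to Fxyd6 ratio per kb was 492, 3514 and 4394 in DRG replicates 1, 2 and 3, and at most 0.0103 in any glial library. Thus the ratio moved between DRG neurons and either glial type by more than it did within any cell type. Its OPC and astrocyte ranges overlapped.

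Fxyd1 encodes phospholemman, best known as the pump regulator of heart and skeletal muscle. Its 4 RefSeq transcripts share nearly all of their bases: in the matching GENCODE models 0 to 12 bases of each, out of 492 to 620, lie in no other transcript of the gene. Its count may therefore cover only a small part of its mRNA. It had 2, 0 and 1 counts in the DRG libraries, 0 in all 3 OPC libraries, and 66, 15 and 29 counts in the astrocyte libraries. The astrocyte counts came from NM_052992 (43, 13 and 21) and NM_194321 (23, 2 and 8), and the other accessions were at 0. In the GENCODE models the first of these has 0 bases of its own, so those models do not show how its reads were assigned. In CPM, astrocytes had 1.24, 0.356 and 0.802 in replicates 1, 2 and 3, above every DRG and OPC library. Astrocytes exceeded DRG neurons by a ratio of 32.3 (95% counting interval 10.8 to 159, adjusted p = 0.00357). Against astrocytes, OPC were at least 37.8-fold lower, with a floor of 3 counts over the group (adjusted p = 0.00164). No fold is given between DRG neurons and OPC, both at or under the floor (adjusted p = 0.126). Fxyd1 passed the low-count filter only through its astrocyte counts, so its p-values against astrocytes are not separate evidence that astrocytes are higher. The fitted log2 fold change of DRG neurons over astrocytes was -4.75, and it was -5.78 without DRG replicate 1 and -4.06 without DRG replicate 2. Astrocyte replicate 1 held 66 of the 110 astrocyte counts. Without astrocyte replicate 1, 2 or 3 the ratio of astrocytes to DRG neurons was 21.7, 41.0 or 32.8. The bound for OPC was then 25.4, 48.0 or 38.4-fold. Over the astrocyte replicates Fxyd1 had the order of the astrocyte marker sum, at 8272, 6458 and 7471 CPM in replicates 1, 2 and 3. The endothelial, myelin and oligodendrocyte, and ependymal and choroid plexus sums had that order too. The ependymal and choroid plexus sum was 32.1 to 61.3 CPM in DRG neurons, 4.11 to 5.70 CPM in OPC and 175 to 1191 CPM in astrocytes. Of those 7 markers 1 reached 5 CPM on average in DRG neurons, none did in OPC and 4 did in astrocytes, and Ccdc153, Tmem212 and Folr1 were at 0 in every OPC library. The part of any of these cell types in the Fxyd1 count was not tested.

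Fxyd2 encodes the gamma subunit, the FXYD regulator best known from the kidney. It did not pass the low-count filter. It had 2, 75 and 70 counts in the DRG libraries, 0, 0 and 1 in the OPC libraries, and 2, 7 and 7 in the astrocyte libraries, from 3 accessions. DRG replicates 2 and 3 were thus well above all other libraries, while DRG replicate 1 was not: it had 0.0677 CPM against 1.58 and 1.81 CPM in the other DRG libraries. Most DRG counts came from NM_007503 (2, 68 and 68), which matches the same GENCODE transcript as NM_052823. In astrocytes NM_007503 had 2, 0 and 0 counts. NM_052823 had 0, 7 and 2 counts in DRG neurons and 0, 7 and 6 in astrocytes, so it did not show the DRG excess. The ratio of DRG neurons to astrocytes was 10.4 (95% counting interval 6.21 to 18.7) and to OPC 172 (30.4 to 6837). The OPC to astrocyte ratio was 0.0607 (0.00145 to 0.390). With no filter on low counts, DRG neurons passed the test against astrocytes (log2 3.14, adjusted p = 0.0270) and against OPC (adjusted p = 0.00235), and OPC against astrocytes did not (adjusted p = 0.0801). Without DRG replicate 1 the gene entered the test, and all 3 comparisons passed it, with DRG neurons at a log2 fold change of 3.70 over astrocytes (adjusted p = 0.00325), DRG neurons above OPC (adjusted p = 0.000467) and OPC below astrocytes (adjusted p = 0.0192). That fit dropped the DRG library with the lowest Fxyd2 count, so its p-values are not separate evidence of these differences. In the other leave-out fits that tested Fxyd2, DRG neurons against OPC passed throughout, while DRG neurons against astrocytes passed without any 1 OPC library (adjusted p = 0.0342 to 0.0416) and did not without any 1 astrocyte library (0.0512 to 0.0629) or without astrocyte replicate 1 and OPC replicate 3 together (0.0846). OPC against astrocytes passed in none of those other fits (0.0647 to 0.192). The counting intervals do not hold the spread between DRG libraries.

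Atp1a4 and Fxyd5 had few counts. Atp1a4, an alpha subunit best known from sperm, had 0, 1 and 1 counts in DRG neurons, 0 in all OPC libraries and 12, 28 and 49 in astrocytes. The DRG counts were exceeded by a ratio of 39.2 in astrocytes (95% counting interval 10.5 to 329, adjusted p = 0.00324), and OPC were at least 30.6-fold lower than astrocytes (adjusted p = 0.00192). Without astrocyte replicate 3 these values were 24.3 and at least 19.0-fold. Like Fxyd1, Atp1a4 passed the low-count filter only through its astrocyte counts, so its p-values are not separate evidence that astrocytes are higher. Fxyd5, dysadherin, was measured through isoform-specific reads of 4 accessions, at 0.790 ± 0.0984 CPM in DRG neurons, as against 0.285 ± 0.326 in OPC and 1.46 ± 0.0599 in astrocytes. OPC were below astrocytes (log2 -2.36, adjusted p = 0.0295), and it did not pass the test against either in DRG neurons (adjusted p = 0.321 against astrocytes and 0.125 against OPC).

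**Figure D4:**
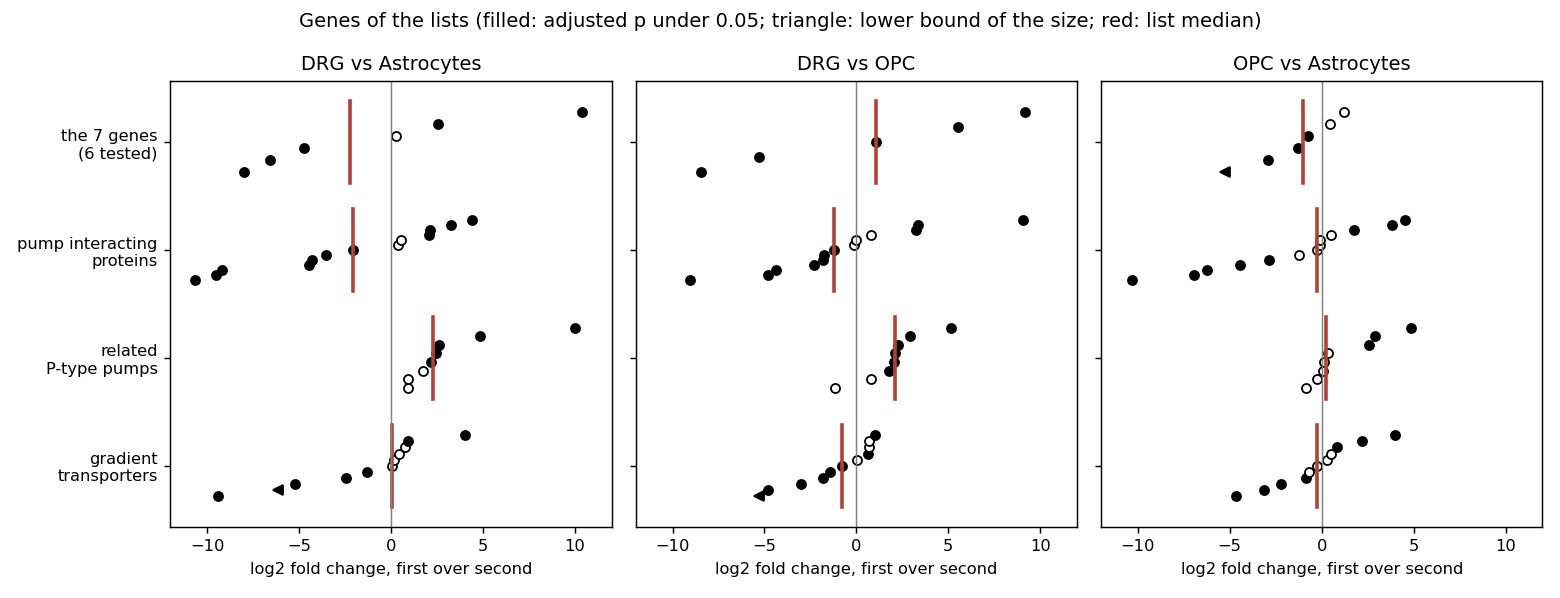
Log2 fold change, first group over second, of each tested gene of the 7 and of 3 pathway lists, in 3 comparisons, with filled symbols for an adjusted p under 0.05, triangles for lower bounds of the size and a red bar at each list's median. The P-type pump genes lie mostly right of 0 where DRG neurons come first, with medians of 2.30 and 2.09.

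Proteins that bind the pump or share its complexes were tested for 13 of 14 genes. For DRG neurons against astrocytes 4 were higher, 7 lower and 2 did not pass, with a median log2 fold change of -2.06. The largest differences were in Mlc1 (-10.64) and Hepacam (-9.17), which encode partner membrane proteins of astrocyte junctions, and in the water channel gene Aqp4 (-9.53). Mlc1 averaged 0.937 ± 0.330 CPM in DRG neurons, against 19.6 ± 12.04 CPM in OPC and 1500.3 ± 604 CPM in astrocytes. For DRG neurons against OPC 3 were higher, 7 lower and 3 did not pass (median -1.23), led by Hepacam (-9.06), Fstl1 (9.04) and the kinase gene Sgk1 (-4.82). Fstl1 encodes a secreted protein that in rat DRG neurons was described as an activator of the pump. It averaged 4445 ± 1429 CPM in DRG neurons, 8.44 ± 1.20 CPM in OPC and 1042 ± 525 CPM in astrocytes. For OPC against astrocytes 3 were higher, 5 lower and 5 did not pass (median -0.24), led by Aqp4 (-10.33), Fstl1 (-6.95) and Mlc1 (-6.25). All of these named differences passed the test, with adjusted p from 2.76e-06 (Hepacam, DRG neurons against astrocytes) to 0.000594 (Sgk1). Ank3 was listed at 0, as a gene with several accessions. Sgk1 has 6 RefSeq transcripts, so it may be under-counted too.

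Related P-type pumps, most of which move calcium or protons, were tested for 8 of 12 genes. For DRG neurons 5 were higher, 0 lower and 3 did not pass against astrocytes, and 6 were higher, 0 lower and 2 did not pass against OPC. The plasma membrane calcium pump gene Atp2b3 averaged 186 ± 14.6 CPM in DRG neurons, 5.30 ± 0.483 CPM in OPC and 0.182 ± 0.275 CPM in astrocytes. Its log2 fold changes were 10.01 for DRG neurons over astrocytes, 5.13 for DRG neurons over OPC and 4.87 for OPC over astrocytes (adjusted p = 1.67e-05, 0.000176 and 0.000672). Atp2b2, another calcium pump of the plasma membrane, was at 4.84, 2.26 and 2.58 in the same comparisons (adjusted p = 0.000221, 0.00574 and 0.00845). Atp2a2, the calcium pump of the endoplasmic reticulum, was at 2.62 and 2.90 in the comparisons with DRG neurons (adjusted p = 5.95e-05 and 3.81e-05). For OPC against astrocytes 3 were higher, 0 lower and 5 did not pass (median 0.21), and the third was the proton pump gene Atp4a, at 2.87 (adjusted p = 0.0149) and under 1 CPM on average in every group.

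Transporters and channels that use or shape the sodium and potassium gradients were tested for 11 of 13 genes. For DRG neurons against astrocytes 2 were higher, 5 lower and 4 did not pass (median 0.05), and against OPC 2, 6 and 3 (median -0.76). Kcnj10, the inward rectifier channel of glial potassium clearance, averaged 4.68 ± 2.68 CPM in DRG neurons, 129 ± 90.0 CPM in OPC and 3226 ± 652 CPM in astrocytes. Its log2 fold changes were -9.43 for DRG neurons over astrocytes, -4.79 for DRG neurons over OPC and -4.64 for OPC over astrocytes (adjusted p = 1.10e-05, 0.000161 and 0.000294). Kcnj16, its channel partner, had 0 counts in DRG neurons and was there at least 69.9-fold lower than in astrocytes and at least 39.0-fold lower than in OPC (adjusted p = 0.00277 and 0.00428). Astrocyte replicate 1 held 200 of the 238 astrocyte counts of Kcnj16, and without it the bound against astrocytes was 18.7-fold. The sodium-calcium exchanger gene Slc8a1 had 2 counts over the DRG libraries, which astrocytes exceeded by a ratio of 48.0 (95% counting interval 13.0 to 401) and OPC by 9.83 (2.43 to 86.0; adjusted p = 0.00161 and 0.0342). Without astrocyte replicate 1 the astrocyte ratio of Slc8a1 was 31.1. Kcnj16 and Slc8a1 have 5 and 4 RefSeq transcripts, so reads that these share may be uncounted. Their low counts need not mean that the mRNA was absent. For OPC against astrocytes 3 were higher, 4 lower and 4 did not pass (median -0.25), led after Kcnj10 by the exchanger gene Slc8a3 (3.99) and the potassium-chloride cotransporter gene Slc12a7 (-3.12; adjusted p = 0.000118 and 0.00110). Slc4a4 was listed at 0, as a gene with several accessions.

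The 3 genes with a pattern most like each tested pump gene were found by the Pearson correlation of log2 CPM over the 9 libraries, among genes with at least 5 CPM on average. The 9 points fall into 3 cell types, so a high r mostly reflects the order and spacing of those types. Closest to Atp1b1 were Letm1, Tuba4a and Cd55 (r = 0.997, 0.996 and 0.995), and closest to Atp1b2 were Plxnb1, 2310022B05Rik and Pomt1 (0.998, 0.996 and 0.995). Atp1b3 was nearest to Capn2, Pappa and Lmna (0.991, 0.989 and 0.989). Fxyd7 was nearest to Rps6kl1, the potassium channel gene Kcnk4 and Cyp4x1 (0.997, 0.996 and 0.996), and Fxyd6 to Cand2, Aplp2 and Dip2b (0.997, 0.995 and 0.994). For Fxyd1, with its few counts, they were Capsl, Arhgef19 and Isg15 (0.996, 0.993 and 0.993). Levels of such neighbours could still differ widely from the pump gene: Tuba4a averaged 578 CPM in DRG neurons, 1.59 CPM in OPC and 42.9 CPM in astrocytes, and Letm1 averaged 151 CPM in DRG neurons, 63.4 CPM in OPC and 98.8 CPM in astrocytes.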

How the data were processed

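RNA from the 9 cultures was prepared with a stranded mRNA kit, per the labels' protocols. Reads were processed with TopHat2, HTSeq and the mouse build mm10, per the submitters' processing notes, and versions and counting settings (mode, strand) are not given in the sources used here. Deposited values are raw read counts per RefSeq accession. Of 33787 accessions, 33315 were named from RefSeq GRCm38.p6 and 193 from GENCODE vM21, 279 kept their accession, and counts were added per gene. Of all reads, 37.1 to 46.9% were not assigned, 22.0 to 24.7% as ambiguous, which left 30710093 to 53594210 assigned counts per library and leaves genes with several accessions under-counted.

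Genes were tested in edgeR 4.0.16 (R 4.3.3) by its quasi-likelihood test, in 1 model of all 9 libraries with TMM factors, 6 residual degrees of freedom and filterByExpr (minimum count 10), with Benjamini-Hochberg adjustment over 14848 genes and a threshold of 0.05. Each SE was worked back from the test, as the size of log2 fold change over root F. CPM are TMM-scaled. Ratios with 1 to 3 counts in the lower group, and those of the untested Fxyd2, carry 95% counting intervals; floors are 3 counts per group. Both cover counting error only. Alternatives were DESeq2 1.42.0, other scalings and filters, subsets of libraries, a replicate block, a length correction and single accessions. The script was tested on simulated data.

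The genes and lists were chosen with earlier results of these data known. All 7 genes are named, and of the other pump and FXYD genes those given here; some genes are not reported here. From other lists, at most the 3 largest log2 fold changes past the threshold are named per comparison. The 3 most correlated genes are also named for each tested pump gene. Letm1 and Tuba4a are given with levels as examples chosen after their values were seen.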

Additional observations from a re-analysis of the deposited data

How the results depend on the processing

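Over 19 alternative settings, 332 of 338 alternative values of the tested pump genes kept their direction and their side of the threshold, 2 were no longer called, 3 were newly called and 1 changed sign. The change of sign was Fxyd6 in OPC against astrocytes, at -0.13 without astrocyte replicate 1 and OPC replicate 3, and it was not past the threshold in either case. Calls were lost for Atp1b2 in OPC against astrocytes and gained for Atp1b3 in DRG neurons against astrocytes and for Fxyd7 in OPC against astrocytes, with values as given above. The cause was not tested. Leaving out 1 library at a time, the number of the 7 genes called higher was 2 to 4 for DRG neurons against astrocytes, 3 to 4 for DRG neurons against OPC and 0 to 1 for OPC against astrocytes. The highest of the first range, 4, came without OPC replicate 3, and the 1 of the last range without OPC replicate 1. Fxyd2 entered the test in several of these fits and adds to those counts. The numbers called lower were 3, 2 and 3 to 5 in the same order, the 5 without DRG replicate 1, and counts over all genes stayed within 1.5 times under every alternative. These fits, each without 1 library, tested 15114 to 15333 genes. Of all genes tested, 3561 to 4617, 3750 to 4717 and 3084 to 4075 were called higher, in the same order. Called lower were 4197 to 5001, 3741 to 4879 and 3232 to 3946.

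Same-numbered libraries were at most weakly alike. Their deviations from the group means correlated at -0.036 to 0.128, with only 1 of 9 pairs above 0.1, against -0.130 to 0.078 for libraries of different number. For 3 libraries, the closest match in both other cell types had their own number. With the replicate number as a block, 2 of the pump genes were called higher and 3 lower in DRG neurons against astrocytes, 3 and 2 in DRG neurons against OPC, and 0 and 4 in OPC against astrocytes, so that no count of these genes changed. Over all 14848 genes, that fit called 4033 higher and 4714 lower in DRG neurons against astrocytes.

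Depth limits Fxyd1 and Fxyd2, whose groups held from 0 to 147 counts, and the low-side values of Fxyd6 and Fxyd7, which rest on 49 to 115 counts per group.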
